A study of Mus musculus with 12 samples.

Results

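The Zfp genes encode proteins with zinc finger domains. The members described here were the autosomal protein-coding genes of the mouse (build mm10, GENCODE M21) whose symbol is Zfp followed by a number and at most 1 letter, with Zfp42 left out. There were 382 of them among 20807 autosomal protein-coding genes. A member was called clustered when at least 2 other members had their transcription start site (TSS, the most upstream one annotated) within 250 kb, and single otherwise, which gave 195 clustered and 187 single genes. The choice used gene names and positions only, and no read.

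OK-seq, which sequences Okazaki fragments labeled with EdU, was done in naive mouse embryonic stem cells (ESCs) and in epiblast-like cells (EpiLCs) made from them by withdrawal of LIF and 2i. Each state was measured in a control line, a KMT2C/D dKO line and a KMT2C/D dCD line, with 2 biological replicates summed into 1 track per condition. The control was itself a KMT2C knockout, the dKO cells were KMT2C knockouts in which CreER and 4-hydroxytamoxifen had removed KMT2D, and the dCD cells carried catalytically dead KMT2C/D. The dKO parent line was of mixed C57BL/6 and 129 background and the dCD cells, from the R1 line, were of 129 background, so mutation and strain differ together in dCD. The paper lists no KMT2C knockout line apart from the dKO parent line, and gives no background for the control by itself. Depth was 3655095 to 4409068 reads in the naive and 11407678 to 13601460 in the EpiLC libraries, or 37.0 to 138 reads per 25 kb of autosome. Since replicates cannot be separated, no spread between replicates is known, each mutant or state comparison is one between libraries, and the 95% intervals given below cover counting error only. The libraries hold genomic DNA, so the cell types could not be checked by markers.

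Many Zfp proteins carry a KRAB domain, through which they recruit Trim28 (KAP1) and the methyltransferase Setdb1 to retroelements and to some imprinted regions, where H3K9me3 is laid down. Genes of this family have multiplied by tandem duplication and lie in dense clusters, in which their own bodies can carry H3K9me3, while other Zfp genes stand alone and encode regulators conserved across mammals. Okazaki fragments are made on the lagging strand, so their strand tells the direction of the fork, and the promoters of active genes are known sites near which forks start.

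Clustered promoters were poorer in CpG than single ones. The median number of CpG within 500 bases of the TSS was 36 in clustered and 51 in single members, against 43 in the other protein-coding genes. In the 200 bases upstream of the TSS, the GC box GGGCGG, searched on both strands, occurred in 25.1% of 195 clustered and 42.8% of 187 single promoters, against 38.0% of 20804 protein-coding promoters with known bases. The CCAAT box, spelled CCAAT, was found in 42.6% of clustered and 36.9% of single promoters, against 31.2% of all. The TATA box TATAAA was found in 4.10% and 4.28%, against 9.31%. None of these motifs contains another. The promoters of the single members with the highest and lowest strand bias, defined below, and of the clustered member with the highest show how unlike in CpG such promoters can be. Each is given in the direction of its gene, from GRCm38 (mm10), up to the base before the TSS, with each CG pair in capitals.
Zfp113, highest single member, chr5:138155745-138155944, minus strand: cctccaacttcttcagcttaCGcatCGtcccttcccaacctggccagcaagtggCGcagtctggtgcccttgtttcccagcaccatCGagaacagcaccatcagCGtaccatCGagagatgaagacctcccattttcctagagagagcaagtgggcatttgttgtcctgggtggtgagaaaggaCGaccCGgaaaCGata
Zfp691, lowest single member, chr4:119174196-119174395, minus strand: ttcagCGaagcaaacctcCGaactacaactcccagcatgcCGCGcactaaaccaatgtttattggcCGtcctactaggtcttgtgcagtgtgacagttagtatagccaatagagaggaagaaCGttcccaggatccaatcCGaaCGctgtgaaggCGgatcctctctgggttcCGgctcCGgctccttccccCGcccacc
Zfp995, highest clustered member, chr17:21909927-21910126, minus strand: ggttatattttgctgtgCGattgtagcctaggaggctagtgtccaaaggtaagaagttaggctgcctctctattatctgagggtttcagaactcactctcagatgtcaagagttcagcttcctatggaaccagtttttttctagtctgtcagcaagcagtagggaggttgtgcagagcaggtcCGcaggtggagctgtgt
They hold 9, 12 and 2 CG pairs. Of the 3 motifs, Zfp691 has GGGCGG on the opposite strand and CCAAT on both strands, and the others have no match. The lowest single promoter is thus richer in CG than the highest one, and the highest clustered promoter has fewer than both.

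To ask where forks start around these genes, strand bias was taken as the difference in Crick percentage between the right and the left 25 kb flank of a TSS. Crick reads come from forks moving left to right, so a site from which forks leave has a positive value. Summed over the 187 single members, strand bias was 6.80, 9.29 and 8.16 percentage points in the naive control, dKO and dCD libraries, and 4.65, 4.69 and 5.59 in the EpiLC ones. Over the 195 clustered members it was 4.58, 6.23 and 7.79 in the naive and 3.26, 4.22 and 4.17 in the EpiLC libraries. As counted, both classes were thus above 0 in all 6 libraries, and the clustered class was below the single class in each. The other 20424 protein-coding genes had 6.75, 6.51 and 7.17 in the naive and 4.46, 4.803 and 5.21 percentage points in the EpiLC libraries. The 1365 clustered olfactory and vomeronasal receptor genes (Olfr and Vmnr), another family grown in tandem and silent in ESCs, ranged from -0.016 to 0.747. As counted, every clustered Zfp value was above every receptor value.

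**Figure D1:**
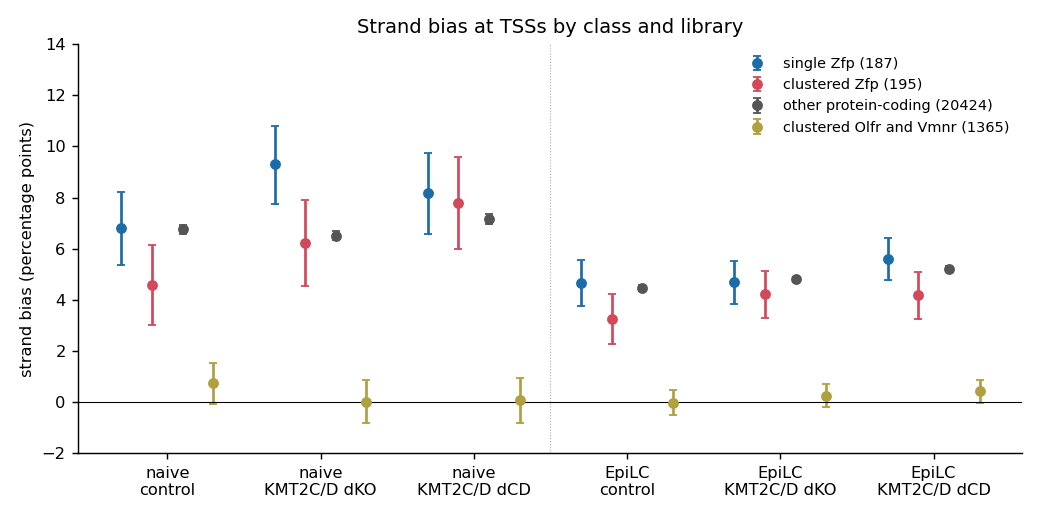
Strand bias (percentage points, vertical axis) of single Zfp, clustered Zfp, other protein-coding and clustered receptor TSSs in the 6 libraries (horizontal axis); points are sums over a class and bars 95% counting intervals. The receptor points lie between -0.016 and 0.747, and the clustered Zfp points (3.26 to 7.79) below the single ones (4.65 to 9.29) in every library.

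The mean difference between single and clustered members was 1.49 percentage points (95% interval 0.740 to 2.24), with single higher in 6 of 6 libraries (exact two-sided sign-flip permutation test over 6 libraries, p = 0.0313, the smallest this design allows, Benjamini-Hochberg adjusted over 3 comparisons 0.0938). The 6 libraries are 3 lines in 2 states, and this test treats them as independent, whereas 3 lines allow no p below 0.25. Single members exceeded other protein-coding genes by 0.712 (0.206 to 1.22), in 5 of 6 libraries (exact permutation p = 0.0938, adjusted 0.125). The naive dKO library alone had 2.78 and the others from -0.114 to 0.994, and without it the mean was 0.298 (-0.225 to 0.820). Clustered members differed from them by -0.778 (-1.34 to -0.217), with 5 of 6 libraries negative (exact permutation p = 0.125, adjusted 0.125), and by -0.4995 (-1.09 to 0.0935) without the naive control. None of the 3 passed 0.05 after adjustment. With 50 and 100 kb on each side, single minus other was 1.49 and 2.05 and single minus clustered 2.63 and 2.67, each with an adjusted p of 0.0469 by the same exact permutation test. By chromosome, the naive mean of single members was above that of clustered ones on 8 of 14 chromosomes that hold both, and so was the EpiLC mean. The direction also changed with the window: with 10 kb on each side, single minus clustered was -0.938 (-2.08 to 0.203) and clustered minus other genes 2.53 (1.70 to 3.36).

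The profile around the TSS gives the same shares at a finer scale. Between the 5 kb steps centred 2.5 kb to the left and 2.5 kb to the right of the TSS, the naive Crick share went from 43.4% to 51.3% in clustered and from 47.0% to 52.8% in single members. In EpiLCs it went from 45.0% to 50.2% and from 47.0% to 51.2%. The jump at the TSS itself was thus larger in clustered members, at 7.91 against 5.83 points in naive cells and 5.25 against 4.23 in EpiLCs. From there to 22.5 kb on the right, the share in clustered members fell by 3.73 points in naive cells and by 2.57 in EpiLCs, where single members moved by 1.03 and 1.46 points in the other direction. Other protein-coding genes had a jump of 5.29 and 3.45 points, so that a jump was present in every class. Clustered receptor genes had one of 6.03 and 4.06 points on a slope that ran the other way. No interval was computed for these jumps, and base composition, treated below, was not taken off.

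**Figure D2:**
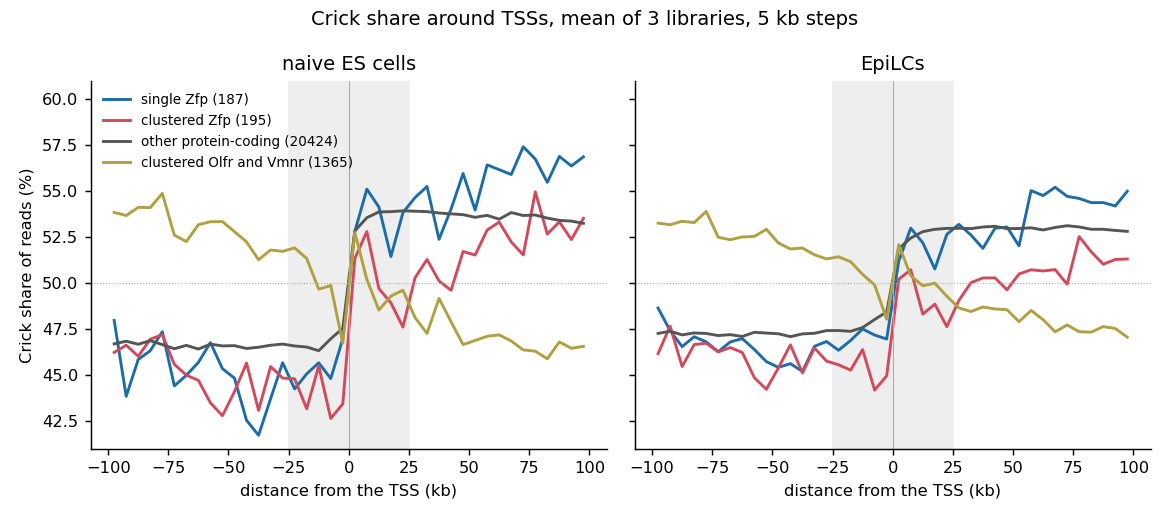
Crick share of reads (%, vertical axis) by distance from the TSS in genome orientation (kb, horizontal axis), in 5 kb steps, as the mean of the 3 libraries of a state; the shaded band is the 25 kb on each side used for strand bias. Clustered Zfp genes (red) rise at the TSS from 43.4% to 51.3% in naive cells and fall back to 47.6% at 22.5 kb, while single Zfp genes (blue) stay at 53.8% there.

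Reads from forks moving left were, as counted, more frequent around clustered than around single members. Their Crick share was 42.1 to 45.8% on the left and 48.7 to 50.4% on the right, against 44.1 to 47.2% and 51.8 to 54.0% in single members. Read along each gene, the share of reads from forks moving with transcription in the 25 kb downstream of the TSS was 54.7 to 56.7% in clustered, 53.2 to 56.0% in single and 53.6 to 55.7% in other genes. Upstream it was 49.1 to 52.2%, 46.2 to 49.0% and 48.6 to 49.2%. Upstream of clustered members it was above an even split in 5 of 6 libraries, though only 50.1% in naive dKO. Upstream of single members it was so in 0 of 6. No interval was computed for these shares, and base composition, treated next, was not taken off.

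EdU stands in for thymidine, and bins with more T than A on the reference strand held relatively more Crick reads in every library. The mean T minus A content was higher to the right of the TSS by 2.79% of bases in single, 2.22% in clustered and 2.001% in other genes. Once this contribution was subtracted, strand bias was 2.37, 5.23 and 4.04 in naive and 1.71, 1.48 and 2.24 in EpiLC single members, in the order control, dKO and dCD. In clustered members it was 0.845, 3.07 and 4.03 in the naive and 1.27, 1.74 and 1.70 in the EpiLC libraries. The interval of the clustered naive control then included 0 (-0.738 to 2.43), and that value lay nearer to the receptor class, at -0.143, than to other genes, at 3.54. Other genes had 3.54, 3.42 and 3.90 in the naive and 2.31, 2.36 and 2.68 in the EpiLC libraries, and the receptor class -0.899 to -0.143. Single members then no longer exceeded other genes (-0.191, -0.697 to 0.315), and single minus clustered was 0.735 (adjusted p = 0.141, exact sign-flip permutation test).

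Strand bias was then set against CpG content. Genes were split by quartiles of the CpG count of all protein-coding TSSs, with limits at 12, 43 and 70. The 17 single members of the lowest quartile had a naive mean of -1.51 (-4.64 to 1.63) percentage points, and the 51 of the highest 10.9 (9.26 to 12.4). The 18 clustered members of the lowest quartile had 1.10 (-2.20 to 4.39), the 99 of the second 5.12 (3.73 to 6.50) and the 64 of the third 8.47 (6.89 to 10.04), close to the 4.96 and 8.56 of other genes in those quartiles. The 14 of the highest quartile had 6.45 (3.55 to 9.32), below the 10.4 of other genes. Neither class followed the order throughout in naive cells. Among single members, the 55 of the second quartile had 9.38 (7.62 to 11.1), above the 6.92 (5.49 to 8.33) of the third. In EpiLCs, single members had -0.136, 7.51, 2.92 and 6.61 from the lowest to the highest quartile, with the second above the others, and clustered members 1.73, 2.78, 5.24 and 6.10. No test was made across genes.

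Strand bias was lower in EpiLCs than in naive cells in both classes. The difference was -2.16, -4.60 and -2.57 percentage points for single members in control, dKO and dCD cells, with a mean of -3.11 (-4.11 to -2.11). For clustered members it was -1.32, -2.005 and -3.62, with a mean of -2.31 (-3.43 to -1.20). Both fell in 3 of 3 lines, for which the exact sign-flip permutation test gives p = 0.25, the smallest that 3 lines allow. Other protein-coding genes changed by -1.98 (-2.10 to -1.86). The excess over them was -1.13 (-2.14 to -0.117) for single members, negative in 2 of 3 lines, and -0.332 (-1.45 to 0.792) for clustered ones. For single members it was -0.244 (-1.48 to 0.994) without the dKO line and -1.76 (-3.01 to -0.4996) without the control line. The amplitude of fork direction, the SD of the Crick share over 50 kb bins beyond counting error, was also lower in EpiLCs, at 9.71, 10.6 and 12.3 points against 12.6, 13.3 and 16.5 in naive control, dKO and dCD cells. Divided by it and scaled to the naive control, the difference was -1.51 (-2.49 to -0.531) in single, -0.977 (-2.06 to 0.112) in clustered and -0.524 (-0.639 to -0.408) in other genes. The T minus A slope also differed between the states, from 1.45 to 1.54 for naive and from 1.04 to 1.22 for EpiLC libraries (change in Crick fraction for a change of 1 in the T minus A fraction). Without the T minus A contribution, the mean difference was -2.07 (-3.07 to -1.06) in single and -1.08 (-2.20 to 0.0380) in clustered members. Clustered members of the control line then rose, from 0.845 in naive cells to 1.27 in EpiLCs.

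Next, the mutants were compared with the control. In naive cells, single members had 2.49 (0.401 to 4.57) percentage points more in dKO than in control cells, and 1.36 (-0.772 to 3.49) more in dCD. Clustered members had 1.64 (-0.671 to 3.96) more in dKO and 3.20 (0.815 to 5.59) more in dCD. The intervals of single members in dKO and of clustered members in dCD lay above 0, and whether the mutants or the classes differed in this was not tested. With 10 kb on each side both intervals included 0, at 2.77 (-0.493 to 6.03) and 3.21 (-0.322 to 6.74). They did so too under other definitions of a cluster, at 1.93 (-0.00370 to 3.87) for single members in dKO with 2 or more others within 100 kb, and at 2.07 (-0.0478 to 4.18) and 2.505 (-0.224 to 5.23) for clustered members in dCD with 1 or more and 4 or more within 250 kb. Other genes moved by -0.243 and 0.417 in the same libraries, so the excess was 2.73 (0.629 to 4.83) for single members in dKO and 2.79 (0.386 to 5.18) for clustered members in dCD. With 50 kb on each side these were 1.99 (0.478 to 3.51) and 2.14 (0.162 to 4.11). They were 1.26 (0.161 to 2.36) and 1.34 (-0.389 to 3.08) with 100 kb. Clustered members in naive dKO had an excess of 3.59 (0.148 to 7.03) with 10 kb. Single members in naive dCD had one of 1.39 (0.270 to 2.51) with 100 kb. At the other widths the intervals of both included 0. In EpiLCs, single members differed by 0.0427 (-1.18 to 1.27) in dKO and 0.943 (-0.281 to 2.17) in dCD, and clustered members by 0.963 (-0.383 to 2.31) and 0.913 (-0.439 to 2.26). Other genes rose by 0.339 and 0.750 there, and the 4 intervals of the excess over them included 0. With 10 kb on each side, clustered members differed by 3.06 (1.06 to 5.06) in EpiLC dKO, an excess of 2.69 (0.682 to 4.71). No EpiLC interval excluded 0 at 25 kb, while with 100 kb on each side all 4 did, at 1.10 (0.460 to 1.74), 1.92 (1.28 to 2.56), 1.52 (0.535 to 2.498) and 1.52 (0.543 to 2.51) in the same order. Other genes then rose by 0.576 and 1.15, and only the excess of single members in dCD, 0.771 (0.124 to 1.42), had an interval above 0. Divided by the amplitude of each library, the naive differences were 2.03 (-0.00460 to 4.06) for single members in dKO and 1.36 (-0.729 to 3.45) for clustered members in dCD.

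To count members one by one, the 3 lines of a state were summed and a TSS was called when its 95% interval lay above or below 0, given 10 or more reads in either flank. In naive cells 66 of 179 single (36.9%) and 53 of 186 clustered members (28.5%) were positive, against 33.5% of all protein-coding TSSs. Negative calls were made for 8 single (4.47%) and 10 clustered members (5.38%), against 5.77%. In EpiLCs 75 of 182 single (41.2%) and 64 of 192 clustered members (33.3%) were positive, against 39.8%, and 15 (8.24%) and 13 (6.77%) negative, against 7.38%. These shares were near the background in both classes. The median member had 6.80 (quartiles -0.406 and 15.9) in single and 6.996 (-2.07 and 14.1) in clustered naive cells, and 5.04 (-0.796 and 10.2) and 3.67 (-1.12 and 9.73) in EpiLCs. The naive medians of both classes were thus alike, although the sum over clustered members was lower. Strand bias was positive in all 6 libraries at 63 of 183 single (34.4%) and 53 of 193 clustered members with reads (27.5%), against 30.1% of all protein-coding TSSs, and in none at 9 (4.92%) and 12 (6.22%), against 5.12%.

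Naive and EpiLC values of single genes went together. Over the 177 single members with 100 or more reads in both flanks over the 6 libraries together, naive and EpiLC strand bias had a Pearson correlation of 0.737 (Spearman 0.715), and over 182 clustered members 0.737 (Spearman 0.694). These are correlations across genes, which share base composition and, in clusters, reads, and carry no test. The sign was opposite in 30 single and 40 clustered members.

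**Figure D3:**
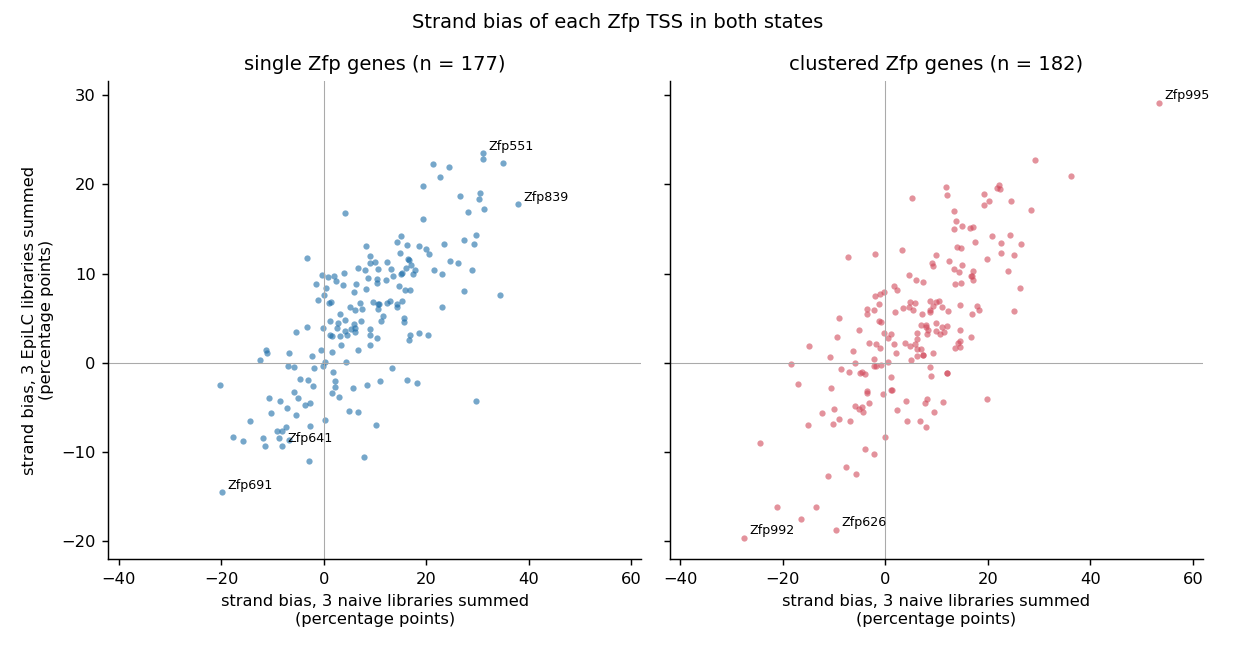
Strand bias of each Zfp TSS (percentage points) in the 3 naive libraries summed (horizontal axis) and the 3 EpiLC libraries summed (vertical axis), for 177 single and 182 clustered members with at least 100 reads on each side; some of the ends are named. Most points lie in the upper right field (116 single and 105 clustered members), and Zfp995 stands apart at 53.4 and 29.1.

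The 5 highest single members, given as a description, were Zfp113, Zfp551, Zfp292, Zfp839 and Zfp395, from 22.6 to 25.4 percentage points over the 6 libraries together. All 5 were positive in every library, which their choice by that sum makes likely. At Zfp113 (chromosome 5, minus strand, ENSMUSG00000037007), strand bias was 35.6, 33.8 and 33.8 in the naive control, dKO and dCD libraries and 23.6, 22.1 and 21.8 in the EpiLC ones. The 3 lines were alike at this gene, and every naive value was above every EpiLC value. The same held at Zfp839, with 39.3, 36.9 and 40 against 17.97, 19.0 and 16.5. The lowest single members were Zfp691, Zfp683, Zfp935, Zfp473 and Zfp641, from -15.8 to -9.20. The sign turned at Zfp641 with 10 kb on each side, at 10.2 (1.22 to 18.9), and at Zfp935 with 100 kb, at 2.77 (-1.66 to 7.15). At Zfp691 (chromosome 4, minus strand), the promoter with 12 CG pairs shown above, 65.5% of the reads on the left and 49.6% on the right were Crick reads, as where forks meet. Its values were -29.6, -3.34 and -27.6 in naive and -15.4, -16.4 and -13.1 in EpiLC libraries, all below 0. The median CpG count was 88 at the high and 25 at the low end.

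Among clustered members, 4 of the 5 highest lay in the cluster of chromosome 17 that runs from Zfp677 to Zfp946. These were Zfp995, Zfp820, Zfp946 and Zfp943, of which Zfp820, Zfp995 and Zfp943 lie within 116.8 kb. At Zfp995 (ENSMUSG00000078546), strand bias was 63.0, 46.2 and 50.8 in the naive and 45.5, 24 and 21.6 in the EpiLC libraries, and 34.6 (27.5 to 41.2) over all, from 348 reads on the left and 353 on the right. It was the highest of all members with 100 reads on each side, with 2 CG pairs in the 200 bases shown above and a read density of 0.693 of the autosomal mean. At Zfp820 the values were 51.2, 23.8 and 32.7, and 16.8, 17.6 and 28.1. With 100 kb on each side Zfp820 came to -0.615 (-3.87 to 2.63).

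The lowest clustered member, Zfp992, lies only 53.0 kb from one of the highest, Zfp981, on chromosome 4. At Zfp992 strand bias was -36.7, -22.9 and -20.95 in naive and -17.5, -14.3 and -25.7 in EpiLC libraries. At Zfp981 it was 19.6, 31.2 and 18.1, and 9.18, 23.5 and 23.7. The neighbours thus had opposite signs in each of the 6 libraries, which their choice by the sum of these libraries makes likely. The Crick share fell from 69.5% to 47.8% across Zfp992 and rose from 52.2% to 72.4% across Zfp981. The other low ends, Zfp869, Zfp873, Zfp626 and Zfp955b, lay in clusters on chromosomes 8, 10, 7 and 17. Zfp955b, at -15.5, rests on 187 reads on each side and was positive in 2 libraries. With 10 kb on each side it came to 13.1 (-28.9 to 46.4), and Zfp626 to 9.24 (1.22 to 17.2). The median CpG count was 26 at the high and 17 at the low end of the clustered class, closer than in the single class.

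Members of known function were described by role. Of 20 such genes, 13 had a positive strand bias in naive cells and 13 in EpiLCs, against 69.7% and 71.2% of all protein-coding TSSs, and 8 in all 6 libraries, against 30.1%. The interval lay above 0 at 9 of them in naive cells and at 11 in EpiLCs, against 33.5% and 39.8%. Zfp57, which keeps imprints by binding methylated imprinting control regions, had 9.14, 17.9 and 15.3 in naive and 9.14, 0.210 and 9.45 in EpiLC libraries. Its partner in imprinting Zfp445 had 0.1696 (-11.4 to 11.7) in the naive and 7.58 (1.39 to 13.7) in the EpiLC sum. Zfp57 was thus positive in every library and Zfp445 in 4 of 6. With 10 kb on each side, Zfp57 came to -3.56 (-11.3 to 4.17).

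The silencers of retroelements had wide intervals around 0 in naive cells. Zfp809, which represses retroviruses through their primer binding site, had -0.853 (-12.1 to 10.4), Zfp932 -5.76 (-22.6 to 11.5) and Zfp708 -2.07 (-13.9 to 9.89). In EpiLCs Zfp708 had 12.2 (5.49 to 18.8), with 11.6, 15.7 and 9.38 in control, dKO and dCD cells. The value changed with the setting. Over the 6 libraries it was 8.95 (3.06 to 14.8) as counted, -0.749 (-6.64 to 5.15) without the T minus A contribution and -3.35 (-9.11 to 2.46) at the TSS of the principal transcript. Zfp568, the repressor of a fetal Igf2 promoter, is clustered, with 22.3, 34.1 and 31.2 in naive and 17.96, 12.04 and 21.3 in EpiLC libraries, all above 0.

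Of the 12 genes of pluripotency and early development, none of which is clustered, 8 were positive in the naive and 7 in the EpiLC sum, and 4 in all 6 libraries. The shares of all protein-coding TSSs were 69.7%, 71.2% and 30.1%. The 4 genes positive in all 6 libraries were Zfp217, Zfp462, Zfp423 and Zfp521. Zfp462, needed for heterochromatin at lineage genes in ESCs, had 18.1, 31.7 and 20.5 in naive and 15.6, 9.69 and 13.6 in EpiLC libraries. Zfp143, a promoter-bound activator, was negative in all 6, with -9.42, -6.08 and -21.1, and -8.24, -6.23 and -10.6. Its sign depended on the width, however, with 2.73 (-5.06 to 10.5) at 10 kb and 4.08 (1.46 to 6.69) at 100 kb. Zfp281, a repressor needed to leave the naive state, had -1.98 (-12.8 to 8.93) in naive and -2.57 (-8.40 to 3.28) in EpiLC cells, which is not distinguishable from 0 at this depth. Zfp703 had 7.81 (-2.95 to 17.9) in naive cells and -10.5 (-16.6 to -4.55) in EpiLCs. Over the 6 libraries its sign also changed, from -6.03 (-11.3 to -0.815) to 3.62 (1.16 to 6.07) with 100 kb on each side. Zfp207 (BuGZ), which acts at kinetochores, and Zfp36 (tristetraprolin), which destroys AU-rich mRNAs, were positive in every library, at 13 (7.82 to 18.1) and 9.73 (4.93 to 14.5) over all.

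For comparison, 15 genes for partners of KRAB zinc finger proteins, such as Trim28, Setdb1, the HP1 genes Cbx1, Cbx3 and Cbx5 and the DNA methylation factors Dnmt1 and Uhrf1, were measured. Their median strand bias was 8.38 in naive cells and 10.3 in EpiLCs, against 6.01 and 4.45 over all protein-coding TSSs. Positive calls were made for 7 of 15 in naive cells and 10 of 15 in EpiLCs, against 33.5% and 39.8% of all protein-coding TSSs. The highest was Uhrf1 in both states, at 32.5 and 21.1, and the lowest were Cbx3 in naive cells, at -12.4, and Setdb1 in EpiLCs, at -3.92.

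The clustered members formed 31 clusters, of which 12 had 6 or more members and held 129 of them. Strand bias summed over a cluster was positive in the naive mean of 27 and the EpiLC mean of 28 clusters, in all 6 libraries in 16, and negative in all 6 in 1. Of the 12 larger clusters, 9 had a naive and 8 an EpiLC interval above 0. The highest of the 12 in both states ran from Zfp628 to Zfp580 on chromosome 7 (6 members, chr7:4915217-5051538), with 16.7, 15.9 and 15.2 in the naive and 8.70, 9.81 and 11.8 in the EpiLC libraries. All 6 of its members were positive over the 6 libraries together, from 5.49 at Zfp524 to 18.9 at Zfp580. The cluster from Zfp677 to Zfp946 (18 members, chr17:21383748-22424222) had 9.05, 9.75 and 13.7, and 6.43, 9.25 and 9.28, and 15 of its 18 members were positive. Beside these counts of members, 69.7% of all protein-coding TSSs were positive in the naive and 71.2% in the EpiLC sum.

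Other clusters had values near or below 0. From Zfp553 to Zfp629 (8 members, chr7:127233061-127615797), strand bias was -1.27, -2.47 and -1.75 in naive and 0.549, 1.38 and 1.49 in EpiLC libraries. Its members ran from -12.7 at Zfp768 to 15.4 at Zfp553, so values near 0 for the cluster hid unlike members. The only cluster below 0 in all 6 libraries was the chain of 2 members Zfp781 and Zfp873 on chromosome 10, from -31.2 to -14.7, of which Zfp781 had a read density of only 0.0494 of the autosomal mean. Averaged over a whole cluster, the Crick share could lie to one side of an even split. Between Zfp180 and Zfp428 on chromosome 7 it was 33.6 to 43.5%, and between Zfp628 and Zfp580 54.6 to 64.7%. Inside them it varied, with 51.7% in EpiLCs 237.5 kb beyond the first TSS of the former, and 42.4% in naive cells 87.5 kb beyond that of the latter.

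**Figure D4:**
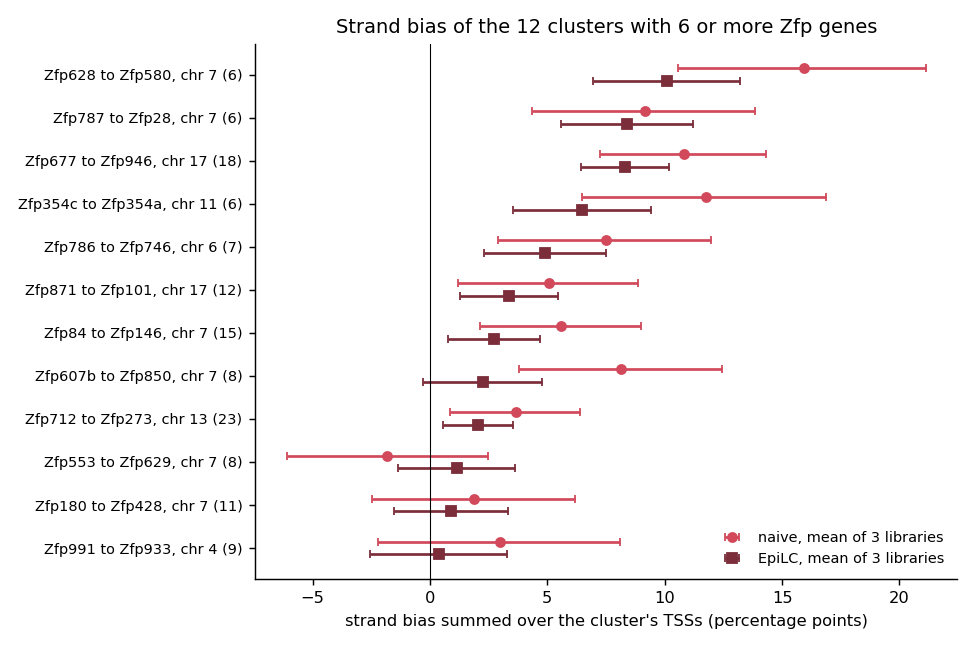
Strand bias summed over the TSSs of each of the 12 clusters with 6 or more Zfp genes (percentage points, horizontal axis), named by first and last gene with chromosome and number of members; circles are naive and squares EpiLC means of 3 libraries, bars 95% counting intervals. The means span -1.83 to 15.9 in naive cells and 0.365 to 10.1 in EpiLCs.

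The largest cluster, with 23 members from Zfp712 to Zfp273 (chr13:67061170-67813740), was poor in CpG, with a mean of 21.5 within 500 bases of the TSS, and only 4 of its genes lie on the plus strand. The Crick share over it was 40.7 to 44.4% as counted, so that most reads came from forks moving left, with the transcription of most of its genes. Base composition was not taken off this share. Its strand bias was 2.96, 2.15 and 5.82 in the naive and 1.55, 1.85 and 2.74 in the EpiLC libraries, positive in all but low. Within it, 14 of 23 members were positive over the 6 libraries together. Of all protein-coding TSSs, 69.7% were positive in the naive and 71.2% in the EpiLC sum. Zfp87, at 15.7 (10.4 to 20.9), was the highest member of the cluster and positive in all 6 libraries.

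This cluster, like the region around it, had fewer reads in dCD cells. It held 1497, 1238 and 872 reads in the naive control, dKO and dCD libraries and 4101, 4682 and 3538 in the EpiLC ones, although the EpiLC dCD library was the deepest. Relative to all autosomal reads, dCD had 0.703 (0.646 to 0.764) of the control density in naive cells and 0.723 (0.691 to 0.756) in EpiLCs, while dKO had 0.927 (0.859 to 0.999) and 1.004 (0.963 to 1.05). All 23 members were below the control in EpiLC dCD cells (ratios 0.558 to 0.898) and 22 of 23 in naive dCD cells. Of the other clustered members, 107 of 170 were below it in EpiLC and 96 of 168 in naive dCD cells, and of single members 103 and 104 of 181. In the other larger clusters the dCD ratio was 0.869 to 1.15 in naive cells and 0.946 to 1.06 in EpiLCs. Of the 30 clusters with reads, only this one and the one from Zfp715 to Zfp819 on chromosome 7 had dCD intervals below 1 in both states, and none did in dKO. The 500 kb on either side of the cluster also had ratios of 0.838 and 0.839. The dCD cells are of 129 background, the reads were mapped to the C57BL/6 genome, and the part of strain in this difference was not tested. A mutant effect and a strain effect cannot be told apart here.

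**Figure D5:**
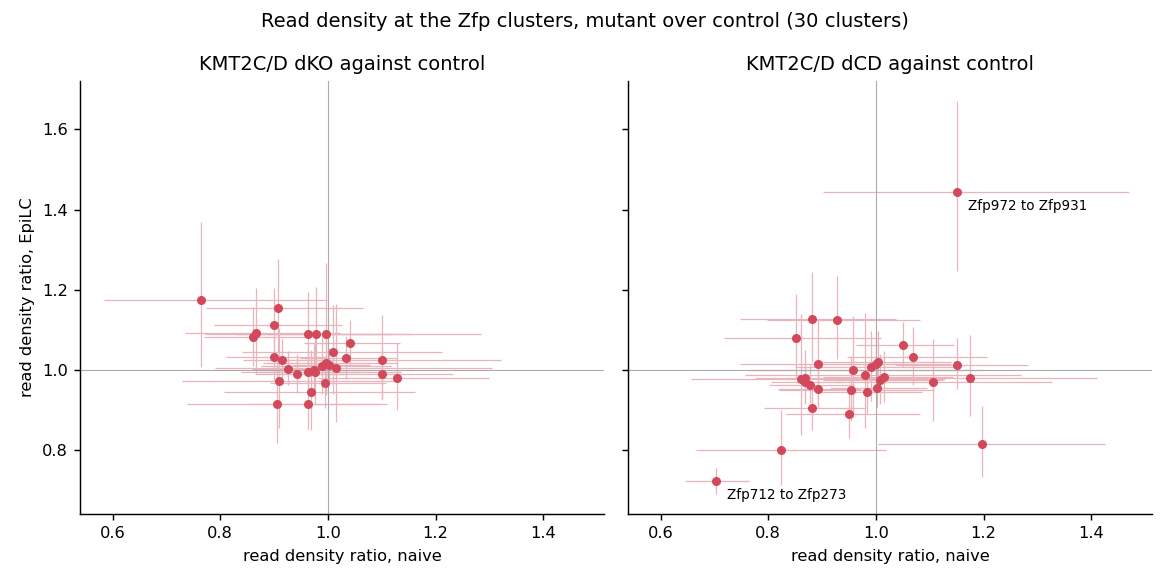
Read density at each of 30 Zfp clusters in the mutant relative to the control, in naive cells (horizontal axis) and EpiLCs (vertical axis), for dKO (left) and dCD (right); bars are 95% counting intervals. In dCD the cluster from Zfp712 to Zfp273 lies at 0.703 and 0.723 and the one from Zfp972 to Zfp931 at 1.15 and 1.44.

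Members near the end of chromosome 2 moved the other way, as did the chromosome around them. Beyond 160 Mb, 11 members with enough reads had dCD to control ratios of 1.21 to 1.91 in EpiLCs, above 1 at all 11, and of 0.829 to 1.55 in naive cells, above 1 at 10. In dKO the medians were 1.13 and 0.914. At Zfp217, ratios in dCD were 1.14 in naive cells and 1.72 in EpiLCs, and at Zfp64 1.30 and 1.65. Among 245 windows of 10 Mb over the autosomes, the 2 beyond 160 Mb on this chromosome were the highest in dCD, at 1.28 and 1.36 in naive cells and 1.27 and 1.41 in EpiLCs. Strand bias of a single gene is a share of reads within each side, whereas in sums over a class or cluster members with more reads weigh more. As a mean over members, clustered strand bias was 4.53 in the naive control and 7.15 in naive dCD cells, against 4.58 and 7.79 as a sum.

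Not all members could be measured. The 4 single members Zfp968, Zfp966, Zfp967 and Zfp973 and the clustered Zfp965 and Zfp969, all between 175372436 and 176670522 on chromosome 2, had 0 reads in every library. Including these, 12 single and 19 clustered members were under 0.5 of the autosomal read density, while the medians were 1.23 and 1.14. At least 10 reads on each side in every library were present at 175 single and 171 clustered members. Windows of clustered members overlapped, so that 26.9 to 28.2% of their reads were counted again, against 2.54 to 2.95% in single members. The intervals allow for repeats within the left or within the right side. They do not allow for reads counted on the right of one TSS and on the left of another.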

How the data were processed

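OK-seq reads had been aligned by the authors to mm10 with bowtie2 and binned by strand into 1 kb bins. The submitters' processing notes also name FastQC, Trim Galore and Picard, and the use made of duplicate marking is not given in the sources used here. The deposited tracks hold Watson and Crick signal in reads per bp, 1 track per condition with 2 replicates summed. Every value times 1000 was a whole number of reads (largest deviation 0.0, to 6 decimals), and positions were taken as bin ends, since 0 reads then fell in 66648 kb of N only. In all, 81 autosomal bins above 10 times the median of 21 reads were left out. The members, classes and lists were chosen with earlier results of these data known.

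Strand bias was summed over a class, with Newcombe intervals from Wilson intervals at a confidence of 95%. In these, reads counted in several windows of the same side were weighted down. No molecular identifiers were used, so reads are not independent molecules and intervals cover counting error only. With 1 track per condition, no count model was used. Named genes were the 5 highest and 5 lowest members of each class with at least 100 reads on each side, 20 members with a known role, all clusters of 6 or more members, and 15 partner genes by counts and range. Further names (Zfp64, the members without reads, the members at the ends of a cluster) were chosen after their values were seen. Alternatives were windows of 10, 50 and 100 kb, other definitions of clusters and TSSs, no overlapping windows, equal depth, the T minus A part taken off, and each chromosome, library or line left out. The T minus A slope was fitted against the 10 bins on each side beyond the nearest 2. The procedure was tested on simulated strands. The promoter sequence of the lowest clustered member is not reported here. Python 3.11.15, numpy 2.4.6, pandas 2.3.3 and matplotlib 3.10.9 were used.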

Additional observations from a re-analysis of the deposited data

Results flagged for a closer look

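The 8 Zfp genes on chromosome X lie outside the autosomal comparisons. Their strand bias stood above 0 beyond the counting interval in 4 of the 6 libraries, which is why they are listed here: 13.9 (2.32 to 24.9) percentage points in naive dCD cells, 6.86 (0.503 to 13.1) in the EpiLC control, 12.97 (7.25 to 18.6) in EpiLC dKO cells and 10.1 (4.27 to 15.9) in EpiLC dCD cells. In the naive control and dKO libraries it was 4.09 (-6.36 to 14.4) and 7.26 (-3.58 to 17.9), from 347 and 324 reads.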

How the results depend on the processing

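The comparisons between classes depended on the window and on base composition. With 10 kb on each side, single minus other genes was 1.59 percentage points, clustered minus other genes turned to 2.53 and single minus clustered to -0.938, and clustered EpiLC dKO minus control came to 3.06. With 50 kb, single minus other was 1.49 and single minus clustered 2.63, and with 100 kb 2.05 and 2.67. As means over members these were 0.875 and 1.39, with libraries thinned to equal size 0.924 and 1.80, and with clusters defined by 2 or more others within 100 kb 0.713 and 1.75, each with an adjusted p of 0.0469 by the exact sign-flip permutation test, which treats the 6 libraries of 3 lines as independent. With 4 or more others within 250 kb, clustered minus other was -1.10 and single minus clustered 1.75. With the T minus A contribution subtracted, single minus other was -0.191, and EpiLC minus naive -2.07 in single and -1.08 in clustered members. With overlapping windows left out as well, an alternative chosen after seeing the data, single minus other was -0.244, clustered minus other -1.24 and single minus clustered 0.992. With each chromosome left out in turn, single minus other was 0.364 to 1.25, clustered minus other -1.12 to -0.475 and single minus clustered 0.975 to 1.99, the extremes of the last without chromosomes 5 and 7. EpiLC minus naive was then -3.70 to -2.76 for single and -2.44 to -2.20 for clustered members. With each chromosome left out, mutant minus control for single members was 2.22 to 2.82 (naive dKO), 0.961 to 2.13 (naive dCD), -0.222 to 0.340 (EpiLC dKO) and 0.506 to 1.23 (EpiLC dCD), and for clustered members 1.23 to 2.28, 2.89 to 4.20, 0.257 to 1.17 and 0.337 to 1.15. With each library or line left out, also chosen after seeing the data, single minus other was 0.298 to 0.877, clustered minus other -1.06 to -0.4995, single minus clustered 1.17 to 1.71, and EpiLC minus naive -3.59 to -2.36 for single and -2.81 to -1.66 for clustered members. Divided by the amplitude, another alternative of this kind, EpiLC minus naive was -1.51 and -0.977. Single genes turned sign with 10 kb on each side at Zfp641 (10.2), Zfp626 (9.24), Zfp955b (13.1), Zfp57 (-3.56), Zfp708 (-1.20) and Zfp143 (2.73), with 50 kb at Zfp703 (1.02), and with 100 kb at Zfp935 (2.77), Zfp820 (-0.615), Zfp143 (4.08) and Zfp703 (3.62). Zfp703 also turned to 4.46 in thinned libraries, and Zfp708 to -3.35 at the TSS of the principal transcript and to -0.749 without the T minus A contribution. The cause of these changes was not tested. Over all class results and alternatives, 483 values kept direction and side of the threshold or, where no test was run, stayed within the counting interval, 23 passed the threshold only in the alternative, 5 left the interval and 4 changed sign. Of the values of named genes, 188 stayed within the interval, 78 left it and 14 changed sign. With 5 libraries no p can pass 0.05. No paired analysis was possible because the replicates of each condition are summed in the deposited tracks, which leaves no replicate numbers to pair by (EpiLC and naive tracks were paired by line). With 37.0 to 44.6 reads per 25 kb in naive libraries, single genes have wide intervals, such as 15.3 to 43.7 points at Zfp981 in naive dKO cells. Absence of bias at a named gene can thus not be read from one library.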
